A study of Homo sapiens with 35 samples.

Results

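PTPRH, PTPRK, PLEKHA6, CLMN, LRRC32, RAB20, AQP3 and TGM2 are 8 genes brought together as early rises under all-trans retinoic acid (ATRA) in the human neuroblastoma line BE(2)-C. The genes were listed by name, and their measurements are the probe sets annotated to exactly 1 of the 8 symbols: 14 of 22930 probe sets, for 8 of 11940 genes with a name. AQP3, CLMN and TGM2 had several probe sets, and the others 1 each: 208300_at for PTPRH, 203038_at for PTPRK, 205093_at for PLEKHA6, 203835_at for LRRC32 and 219622_at for RAB20. The label points to genes chosen by their intensities with ATRA against DMSO at 6 h, so those values are given as a description. Which other values were in view is not recorded, so the tests at 24 and 72 h and with VPA, though on other arrays, are not independent support. PTPRK went against the label: at 6 h its arrays with ATRA overlapped those with DMSO, and its rise was seen from 24 h. BE(2)-C is 1 line, kept in DMEM with fetal bovine serum, and its total RNA was measured on Affymetrix high-throughput human arrays. The cells received vehicle (DMSO), ATRA at 5 µM, valproic acid (VPA) at 1 mM, or ATRA at 5 µM together with VPA at 1 mM, each for 6, 24 or 72 h. Of these 12 groups, 11 were given with 3 arrays each and DMSO at 72 h with 2, which made 35 arrays. The labels call the arrays of a group repeats but do not say whether they came from separate cultures, so p-values measure the spread between these arrays, which may be technical.

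All-trans retinoic acid enters the nucleus and binds retinoic acid receptors, which sit on DNA as partners of the retinoid X receptors and turn transcription on when the ligand is bound. Neuroblastoma cells of this kind slow their growth and grow neurites under retinoic acid. Valproic acid is a short branched fatty acid that inhibits histone deacetylases. The 8 genes have unlike jobs. PTPRH and PTPRK are receptor-type protein tyrosine phosphatases, which remove phosphate from tyrosines at the plasma membrane, and PTPRK also makes contacts between like cells. PLEKHA6 is a pleckstrin-homology-domain protein of cell junctions, and CLMN (calmin) is a membrane-anchored protein with calponin homology domains. LRRC32, also known as GARP, holds latent TGF-beta at the cell surface. RAB20 is a small GTPase of endosomes and phagosomes, AQP3 is a channel for water and glycerol, and TGM2 is tissue transglutaminase, which crosslinks proteins and is a classical retinoid-induced gene.

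The sequence just ahead of the start site is shown for the members whose promoter was in the RefSeq table used (GRCh38.p14), because genes that move together under a nuclear receptor ligand invite a look at the receptor's letters there. Promoters of 4 of the 8 members matched by symbol, those of PTPRH, PTPRK, PLEKHA6 and AQP3. CLMN, LRRC32, RAB20 and TGM2 had no entry. Each line gives the 250 bases ahead of the annotated start, 5′ to 3′ on the gene's own strand, with the matches to 3 searched motifs in capitals (GGGCGG on either strand, TATAAA and CACGTG).
PTPRH, chr19:55209502-55209751, minus strand: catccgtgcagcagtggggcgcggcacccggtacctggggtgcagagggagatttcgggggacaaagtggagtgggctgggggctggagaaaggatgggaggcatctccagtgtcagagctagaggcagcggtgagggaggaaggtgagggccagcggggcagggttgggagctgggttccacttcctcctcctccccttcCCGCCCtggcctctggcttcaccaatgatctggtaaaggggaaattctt
PTPRK, chr6:128520600-128520849, minus strand: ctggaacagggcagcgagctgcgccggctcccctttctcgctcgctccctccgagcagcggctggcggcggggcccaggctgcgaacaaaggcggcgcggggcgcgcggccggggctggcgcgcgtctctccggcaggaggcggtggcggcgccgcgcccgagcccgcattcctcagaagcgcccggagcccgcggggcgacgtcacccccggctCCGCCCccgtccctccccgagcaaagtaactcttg
PLEKHA6, chr1:204359930-204360179, minus strand: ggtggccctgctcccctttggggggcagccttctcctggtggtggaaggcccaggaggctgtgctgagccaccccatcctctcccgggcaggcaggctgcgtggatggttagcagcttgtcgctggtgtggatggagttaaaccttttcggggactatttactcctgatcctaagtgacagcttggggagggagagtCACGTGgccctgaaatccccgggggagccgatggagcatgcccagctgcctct
AQP3, chr9:33447594-33447843, minus strand: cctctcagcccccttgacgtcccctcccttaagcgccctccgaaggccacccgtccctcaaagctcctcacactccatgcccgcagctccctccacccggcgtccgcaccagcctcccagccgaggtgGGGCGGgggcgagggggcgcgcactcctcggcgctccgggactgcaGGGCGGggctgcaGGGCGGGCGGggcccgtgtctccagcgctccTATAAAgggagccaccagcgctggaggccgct
The core hexamers of retinoic acid receptor sites (AGGTCA with its variant AGTTCA, and also GGGTCA with its variant GGTTCA, both strands) were in 0 of the 4 windows, against 33.8% of 35116 promoters of the same length. Direct repeats of these hexamers spaced by 1, 2 or 5 bases were in 0.0968%, 0.0313% and 0.074% of all promoters. Windows without a hexamer cannot hold such a repeat, so their absence from the 4 is no further result. These letters are therefore not in these windows, which says nothing about sites elsewhere. The GC box GGGCGG was in 3 of 4 windows, against 42.6% of all promoters. PTPRH had 1 copy on the opposite strand, 49 to 44 bases ahead of the start, and PTPRK had 1 copy on the opposite strand, 35 to 30 bases ahead. The AQP3 window held 4 copies, the last pair of them overlapping, and TATAAA 32 to 27 bases ahead of the start. TATAAA was in 10.7% of all promoters. PLEKHA6 had no GC box and held the E-box CACGTG 53 to 48 bases ahead, which 6.34% of all promoters had. GC content was 63.2% for PTPRH, 77.2% for PTPRK, 62.4% for PLEKHA6 and 73.6% for AQP3, beside a median of 58% over all promoters.

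The authors deposited intensities on a linear scale, between 9.48 and 26442 over all arrays, with medians of 43.6 to 58.9 per array and lower quartiles of 20.8 to 23.6. There were no detection calls, and the number of arrays limits the precision. Replicate 1 of DMSO at 24 h stood apart, with the lowest median (43.6) and the widest spread around its group mean. The log2 ratio of 3′ to 5′ control probe sets, a sign of RNA quality, was 1.82 in ATRA at 72 h against 1.06 in DMSO at 72 h, and 1.60 in VPA at 24 h against 1.05 in DMSO at 24 h. At 6 h the ratio was lower, from 0.20 in ATRA to 0.44 in VPA. Its part in the results was not tested beyond a fit with the ratio as a covariate. Of 10 sympathetic neuroblast markers 9 were measured and 7 were above 100 in every group, while HAND2 stayed below the array median. All 6 measured Schwann and glial, all 8 endothelial and platelet and all 7 measured blood cell markers were below the array medians in every group. Of the 8 mesenchymal markers 3 were above 100 in every group, and their sum went from 5129 with ATRA at 6 h to 9006 with both agents at 72 h, led by VIM (3508 to 6685), while COL1A1 went from 20.6 to 128.4, highest with ATRA at 24 h. Of the 8 epithelial markers, 6 were below the array medians, and the summed level was 247.6 in DMSO and 639.7 in ATRA at 24 h, led by KRT19, whose highest group mean was 456. EPCAM and CDH1 did not pass a group mean of 37.5 and 26.0, and the part of these markers in the results was not tested. In bulk RNA, fewer cells of a type and less RNA per cell cannot be told apart.

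At 6 h, ATRA alone put 7 of the 8 genes above every DMSO array. These are the values the label refers to. Without overlap upwards were also 8.59% of all genes in that comparison, and 1.03% were called up. On the scale of log2(intensity + 1), the mean difference was 2.12 for PTPRH, which ranked 2 among 11940 genes. PLEKHA6 and CLMN followed at rank 3 and 4, each with a difference of 1.75. The differences were 1.40 for LRRC32 (rank 8), 1.35 for RAB20 (rank 10), 1.11 for AQP3 (rank 23) and 0.69 for TGM2 (rank 62). PTPRK had a difference of -0.22 and rank 11120. The rule is a list of names and has no threshold, so no gene lies just inside or outside it.

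**Figure D1:**
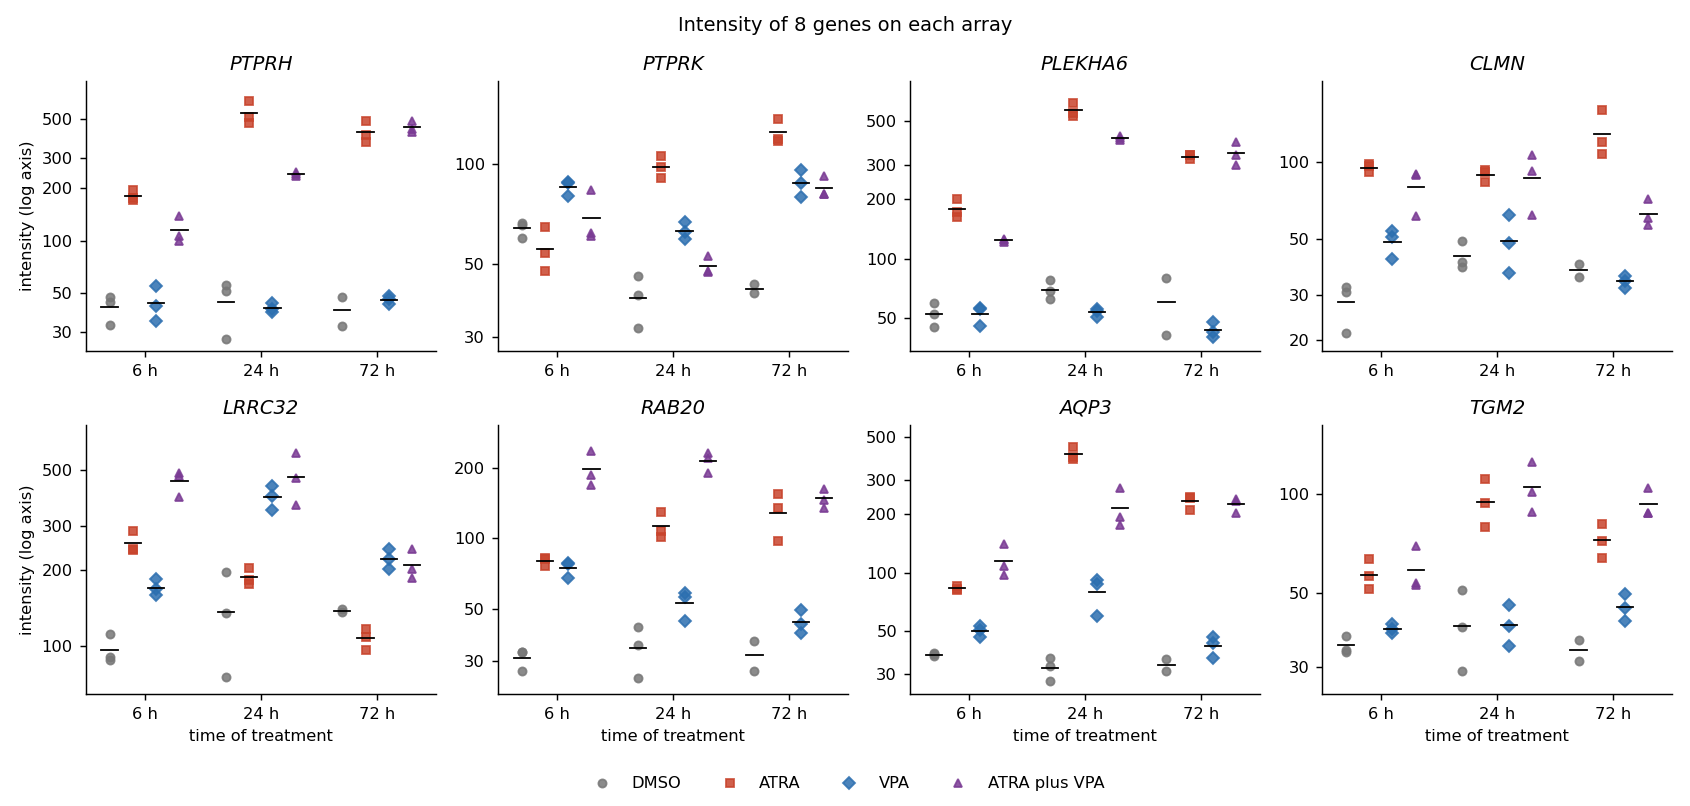
Intensity of each of the 8 genes on each of the 35 arrays (log axis), by treatment and time; points are arrays and short lines are group means of 3 arrays, or 2 for DMSO at 72 h. PTPRH, PLEKHA6 and AQP3 stand highest with ATRA at 24 h, whereas LRRC32 stands highest with both agents at 6 and 24 h.

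ATRA plus VPA was also set against VPA alone at 6 h, a comparison that shares no array with ATRA against DMSO. Here 5 of the 8 genes rose, PTPRH, PLEKHA6, LRRC32, RAB20 and AQP3, each by 2.25- to 2.62-fold, beside 0.452% of all genes called up. None of the 8 fell, beside 0.117% of all genes. CLMN (difference 0.70 ± 0.19 SE, adjusted p = 0.106) and TGM2 (0.57 ± 0.16, adjusted p = 0.121) lay above every VPA array but did not pass limma's threshold of 0.05 after Benjamini-Hochberg adjustment. PTPRK was at -0.32 ± 0.12 (adjusted p = 0.55), with overlapping arrays. The median difference of the 8 was 1.20, beside -0.01 over all genes. Without replicate 3 of ATRA plus VPA at 6 h, CLMN passed as well, at 0.88 (adjusted p = 0.031).

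At 24 h of ATRA all 8 genes were higher than in DMSO by the test, and 7 of the 8 without overlap of arrays. Over all genes 12.5% were called up and 6.01% down, and 16.9% lay above DMSO without overlap. PTPRH and AQP3 rose most, by 12.4- and 12.3-fold, and PLEKHA6 by 8.06-fold. RAB20 rose by 3.28-fold, PTPRK by 2.48-fold, TGM2 by 2.38-fold and CLMN by 2.08-fold, and LRRC32 by 1.48-fold. The median difference was 1.51 for the 8 genes and 0.04 for all genes. At 72 h of ATRA, 7 of 8 were called up, and LRRC32 was not, none was called down, beside 10.7% of all genes up and 20.2% down. The median difference at 72 h was 1.86 for the 8 and 0.00 for all genes.

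**Figure D2:**
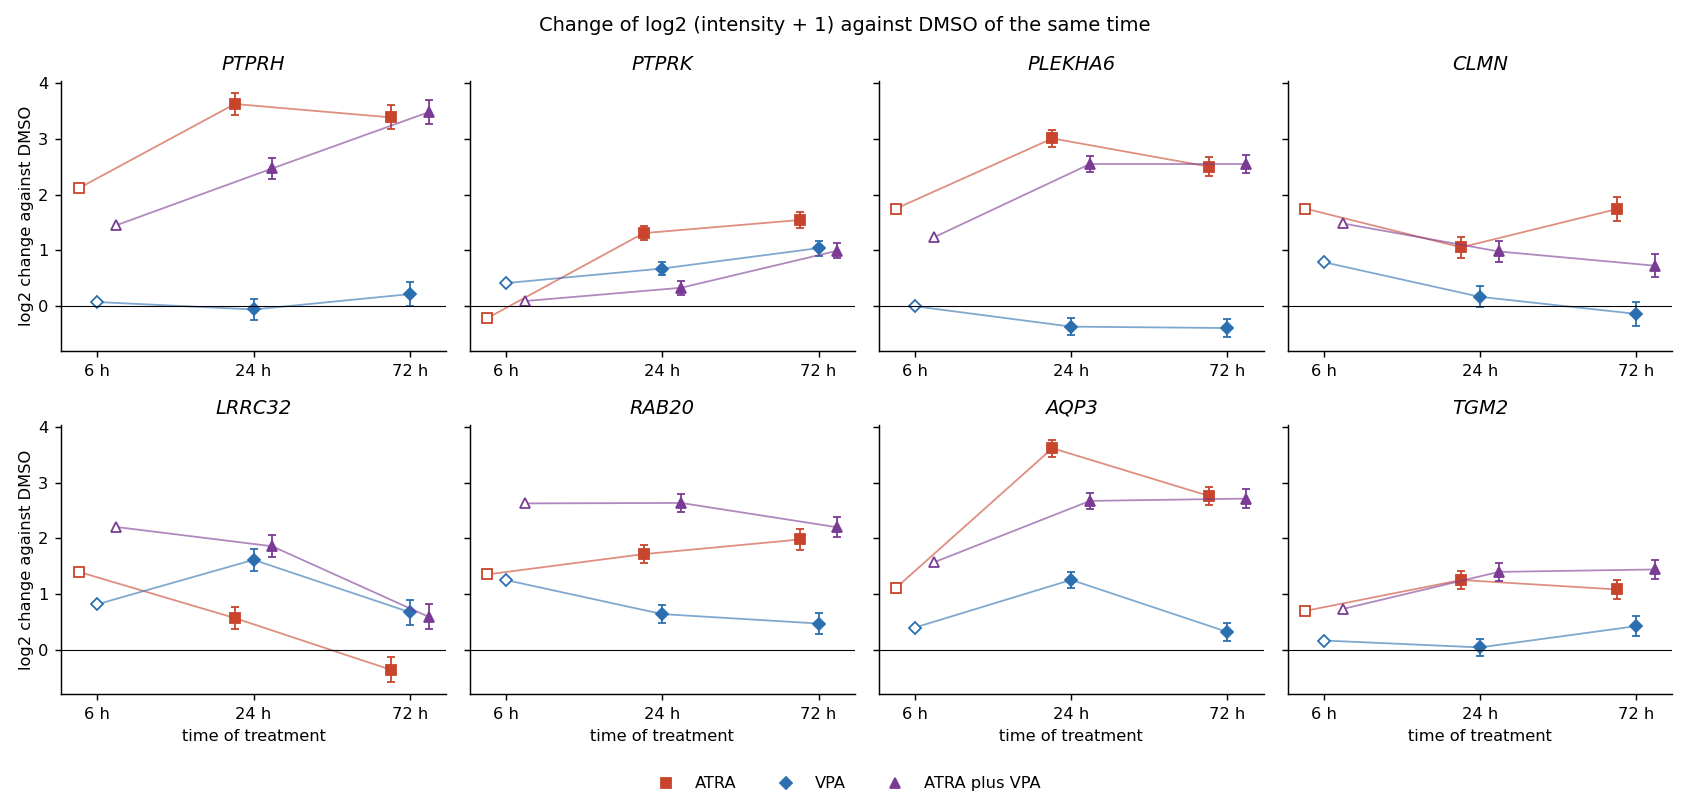
Difference of mean log2(intensity + 1) from DMSO of the same time for each gene under ATRA (squares), VPA (diamonds) and both (triangles), with SE bars from the limma fit at 24 and 72 h; open symbols at 6 h use arrays of ATRA or DMSO at 6 h, are a description and carry no error bar. ATRA lifts PTPRH by 3.63 and AQP3 by 3.62 at 24 h, and LRRC32 goes from 1.40 at 6 h to -0.36 at 72 h.

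PTPRH, the receptor phosphatase with the largest early difference, rose with ATRA at each tested time and was not called with VPA alone. With DMSO its arrays read 47.5, 44.2 and 32.6 at 6 h, 27.3, 55.3 and 51.0 at 24 h, and 47.1 and 32.3 at 72 h. With ATRA they read 172, 196 and 175 at 6 h, 635, 477 and 515 at 24 h, and 405, 370 and 487 at 72 h. Every ATRA array was above every DMSO array of any time. The difference against DMSO was 3.63 ± 0.19 (SE, n = 3 and 3, adjusted p = 7.41e-15) at 24 h and 3.39 ± 0.22 (n = 3 and 2, adjusted p = 3.89e-13) at 72 h. With VPA alone the arrays stayed between 34.4 and 55.1 at all times, which overlapped DMSO, and the difference from DMSO had a 95% interval of -0.45 to 0.33 at 24 h. With both agents the arrays read 139, 106 and 100 at 6 h, 242, 234 and 247 at 24 h, and 484, 420 and 437 at 72 h. The combination was 2.23-fold below ATRA alone at 24 h (adjusted p = 0.000108), with no overlap. At 72 h it was at ATRA's level, with a difference of 0.09 and an interval of -0.30 to 0.49. The interaction at 24 h, which is the combination's difference from DMSO less the sum of the single differences, was -1.10 ± 0.27 and did not pass (adjusted p = 0.0501). It passed at -1.28 without replicate 2 of DMSO at 24 h (adjusted p = 0.016) and at -1.23 without replicate 3 (adjusted p = 0.019).

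PTPRK, the other receptor phosphatase, had a later and smaller rise, and VPA raised it too. At 6 h its arrays read 66.3, 65.8 and 60.0 with DMSO and 53.9, 64.5 and 47.7 with ATRA. At 24 h they read 32.1, 40.2 and 45.9 with DMSO and 90.7, 106 and 98.2 with ATRA. At 72 h the 2 DMSO arrays read 43.4 and 40.8 and the ATRA arrays 120, 118 and 138. The groups overlapped at 6 h and were apart at 24 and 72 h, with differences of 1.31 ± 0.12 (adjusted p = 1.52e-09) and 1.55 ± 0.14 (adjusted p = 3.75e-10). The DMSO level itself was lower at 24 h than at 6 h, with a difference of -0.70 and no overlap. Over all genes 10.1% were called down in that comparison. The log2 3′ to 5′ ratio was 0.27 in DMSO at 6 h and 1.05 at 24 h, and its part in this difference was not tested. VPA alone raised PTPRK by 1.60-fold at 24 h (adjusted p = 0.000252, and 0.064 when only the arrays compared were fitted) and by 2.06-fold at 72 h (adjusted p = 3.51e-06). The agents did not add up. With both, the arrays read 53.0, 47.7 and 47.2 at 24 h, lower than every array with ATRA alone or VPA alone at that time. Against ATRA alone the combination was 1.97-fold lower at 24 h (adjusted p = 1.19e-06) and 1.47-fold lower at 72 h (adjusted p = 0.00136). Against VPA alone it was at -0.35 ± 0.12 at 24 h, which missed the threshold (adjusted p = 0.0608), and passed at -0.40 without replicate 1 of ATRA plus VPA (adjusted p = 0.049). The interaction was -1.66 ± 0.17 (adjusted p = 4.85e-07) at 24 h and -1.59 ± 0.18 (adjusted p = 2.01e-06) at 72 h. Against DMSO the combination's difference was 0.33 at 24 h (adjusted p = 0.0512; 0.45 and adjusted p = 0.012 without replicate 3 of DMSO) and 0.99 at 72 h (adjusted p = 7.98e-07).

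PLEKHA6, the junction protein, followed PTPRH most closely among the members. Its arrays read 59.4, 45.0 and 52.5 with DMSO and 163, 201 and 172 with ATRA at 6 h, and 62.5, 68.1 and 77.5 with DMSO and 532, 551 and 612 with ATRA at 24 h. At 72 h the ATRA arrays read 334, 335 and 318 and the 2 DMSO arrays 40.7 and 80.1. ATRA and DMSO did not overlap at any time, and the difference was 3.01 ± 0.15 (adjusted p = 1.3e-15) at 24 h and 2.51 ± 0.17 (adjusted p = 9.38e-13) at 72 h. With VPA the arrays read 39.9 to 56.0 over all times, and the difference from DMSO did not pass at 24 h (-0.37, adjusted p = 0.106) or 72 h (-0.39, adjusted p = 0.189). The 72 h value depended on the wide DMSO pair: without replicate 1 it was -0.87 (adjusted p = 0.00056), with the lone array assumed to vary like the other groups. With both agents the arrays read 419, 401 and 409 at 24 h, all below ATRA alone, by 1.38-fold (adjusted p = 0.0472). That call did not hold without any 1 of the 6 arrays compared (adjusted p between 0.073 and 0.19). At 72 h the combination and ATRA alone differed by 0.05, with an interval of -0.26 to 0.35. Without replicate 1 of DMSO at 72 h, 2 further values passed for PLEKHA6, an interaction of 0.92 at 72 h (adjusted p = 0.011) and an ATRA difference smaller at 72 h than at 24 h by -0.99 (adjusted p = 0.002).

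CLMN, the calponin-homology protein, was raised early and did not climb between 6 and 24 h. Its arrays read 32.2, 21.2 and 30.8 with DMSO and 91.9, 98.1 and 96.4 with ATRA at 6 h. At 24 h they read 49.0, 40.6 and 38.7 with DMSO and 93.1, 91.8 and 83.6 with ATRA, and at 72 h 39.6 and 35.4 with DMSO and 108, 120 and 161 with ATRA. ATRA and DMSO never overlapped, and the ATRA arrays of 6 and 24 h overlapped each other. The difference from DMSO was 1.06 ± 0.19 (adjusted p = 9.87e-05) at 24 h and 1.75 ± 0.21 (adjusted p = 1.49e-07) at 72 h. The growth of this difference from 24 to 72 h, 0.69 ± 0.28, did not pass (adjusted p = 0.0815). VPA alone gave arrays of 41.8, 50.7 and 53.8 at 6 h, all above DMSO, and overlapped DMSO at 24 and 72 h. These values are of the brightest CLMN probe set. In the dimmer 221042_s_at, VPA and DMSO overlapped at 6 h (22.3 to 26.6 against 20.3 to 29.8). There VPA lay above DMSO at 24 h (24.5 to 29.8 against 19.2 to 23.1). At 72 h the combination's arrays, 60.2, 71.6 and 56.8, were 2.03-fold below those of ATRA alone (adjusted p = 0.000202). The interaction at 72 h was -0.88 ± 0.28 and did not pass (adjusted p = 0.0995). In 221042_s_at the combination at 72 h (21.4 to 32.2) overlapped both ATRA alone (30.2 to 41.0) and DMSO (20.7 to 24.7). The other 72 h values here are those of the brightest probe set. Against DMSO at 72 h the combination was 1.65-fold higher (adjusted p = 0.0073), a call that was lost without replicate 2 of DMSO (0.65, adjusted p = 0.085).

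LRRC32, the carrier of latent TGF-beta, was the 1 member not called up at 72 h of ATRA, and it had the largest VPA difference of the 8 at 24 h. Its arrays at 6 h read 90.8, 111 and 88.5 with DMSO, 243, 285 and 241 with ATRA, and 168, 159 and 185 with VPA. All 3 groups were apart from each other, and the combination at 390, 486 and 470 was above all of them. At 24 h ATRA gave 183, 177 and 205, which overlapped the wide DMSO group at 75.7, 197 and 136. With array weights the log2 difference between them was 0.07 (adjusted p = 0.76). The call there (1.48-fold, adjusted p = 0.0446) rested on single arrays: without replicate 1 of DMSO the difference was 0.20 (adjusted p = 0.52), and without ATRA replicates 1, 2 and 3 in turn the adjusted p was 0.085, 0.063 and 0.15. At 72 h the ATRA arrays, 117, 109 and 96.6, lay below both DMSO arrays, 140 and 136, with a difference of -0.36 ± 0.22 that did not pass (adjusted p = 0.225). VPA alone gave 431, 347 and 393 at 24 h, 3.06-fold above DMSO (adjusted p = 1.02e-06) with no overlap. At 72 h it gave 221, 242 and 202, above DMSO by 0.67 ± 0.22 with no overlap but without passing (adjusted p = 0.068). This difference was called when only the arrays compared were fitted (adjusted p = 0.0073) and with array weights (0.0019). The same held after a second quantile normalization (0.017) and with the 3′ to 5′ ratio as a covariate (0.031). The combination followed VPA at the later times. At 24 h it read 363, 580 and 463, with a difference from VPA of 0.24 and an interval of -0.16 to 0.65, and at 72 h it differed from VPA by -0.08, with an interval of -0.49 to 0.32. Against ATRA alone it was 2.44-fold higher at 24 h (adjusted p = 3.73e-05) and 1.94-fold higher at 72 h (adjusted p = 0.000813). Its rise over DMSO was 3.62-fold at 24 h (adjusted p = 2.5e-08). At 72 h it was 1.50-fold (adjusted p = 0.0419), a call lost without replicate 1 or 2 of DMSO (adjusted p = 0.14 and 0.17) or replicate 1 or 3 of the combination (adjusted p = 0.064 and 0.15).

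RAB20, the endosomal GTPase, responded to each agent at 6 h and was highest with both. Its arrays at 6 h read 27.2, 32.9 and 32.9 with DMSO, 81.7, 82.7 and 76.5 with ATRA, 78.7, 68.0 and 77.9 with VPA, and 236, 170 and 187 with both. The single agents overlapped each other and both lay above DMSO, and the combination lay above both. At 24 h the ATRA arrays read 107, 130 and 102, the VPA arrays 58.6, 56.2 and 44.3, and the DMSO arrays 25.4, 42.0 and 35.2. ATRA raised the gene by 3.28-fold (adjusted p = 3.04e-09). VPA raised it by 1.56-fold (adjusted p = 0.00867), a call lost without replicate 1 of DMSO (0.44, adjusted p = 0.083) or replicate 1 of VPA (0.56, adjusted p = 0.052), and when only the arrays compared were fitted (adjusted p = 0.17). The combination at 24 h read 231, 220 and 190, which was 1.89-fold above ATRA (adjusted p = 0.000265) and 3.99-fold above VPA (adjusted p = 1.95e-10). On the log2 scale the single differences summed to 2.35 and the combination's was 2.63, and the interaction of 0.28 did not pass (adjusted p = 0.746, interval -0.19 to 0.76). At 72 h ATRA read 98.0, 134 and 155, and the combination 146, 163 and 135. These overlapped, with a difference of 0.22 and an interval of -0.12 to 0.55, and both were above DMSO, by 3.94-fold (adjusted p = 1.22e-09) and 4.58-fold (adjusted p = 8.22e-11).

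AQP3, the water and glycerol channel, made the steepest climb of the 8 between 6 and 24 h of ATRA in its brightest probe set. Mean ATRA intensities at 6 and 24 h were 62.5 and 73.2 in its probe set 203747_at, and 41.8 and 64.9 in 39249_at. The brightest probe set also had the most negative interaction of the 8 at 24 h. With its 3 probe sets averaged this was -0.85, beside -1.66 for PTPRK. The brightest AQP3 probe set read 38.4, 37.9 and 37.1 with DMSO and 85.1, 81.9 and 81.4 with ATRA at 6 h, then 27.7, 33.1 and 36.5 with DMSO and 382, 445 and 395 with ATRA at 24 h. At 72 h ATRA read 243, 209 and 244 and DMSO 31.1 and 35.7. The groups never overlapped, and the difference was 3.62 ± 0.15 (adjusted p = 2.33e-17) at 24 h and 2.76 ± 0.17 (adjusted p = 1.21e-13) at 72 h. The fall of the difference from 24 to 72 h, -0.86 ± 0.22, passed (adjusted p = 0.00882) and did not without replicate 2 of DMSO at 72 h (-0.76, adjusted p = 0.061). In 203747_at the difference did not narrow, with ATRA and DMSO means of 73.2 and 47.4 at 24 h and 82.0 and 49.4 at 72 h. In 39249_at it did, from 64.9 and 32.2 to 51.9 and 36.6. In the brightest probe set VPA alone read 87.1, 91.1 and 60.0 at 24 h, 2.38-fold above DMSO (adjusted p = 5.95e-07) with no overlap. There it was at 0.32 ± 0.17 above DMSO at 72 h (adjusted p = 0.331). The combination read 140, 108 and 97.2 at 6 h, 272, 194 and 176 at 24 h, and 201, 238 and 234 at 72 h. At 6 h it lay above every ATRA array in this probe set. In 203747_at it lay below every one (55.3 to 56.5 against 61.2 to 64.0). In the third, 39249_at, the groups overlapped at 6 h. At 24 h the combination lay below every ATRA array in the brightest probe set, by 1.93-fold (adjusted p = 5.02e-05). At 72 h it overlapped them, with a difference of -0.05 and an interval of -0.35 to 0.26. The interaction was -2.20 ± 0.21 (adjusted p = 1.19e-07) at 24 h and -0.37 ± 0.22 at 72 h (adjusted p = 0.401).

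TGM2, the transglutaminase, had the smallest difference at 6 h among the 7 genes that were higher there. Its brightest probe set read 33.3, 37.3 and 33.8 with DMSO and 51.4, 56.3 and 63.4 with ATRA at 6 h. At 24 h it read 39.4, 29.1 and 51.2 with DMSO and 79.6, 93.6 and 111 with ATRA, and at 72 h 36.1 and 31.2 with DMSO and 81.1, 72.1 and 64.0 with ATRA. The groups did not overlap, and the rise was 2.38-fold (adjusted p = 4.61e-07) at 24 h and 2.11-fold (adjusted p = 1.7e-05) at 72 h. With VPA alone this probe set was 0.04 above DMSO at 24 h, with an interval of -0.28 to 0.36, while the mean of the 4 TGM2 probe sets was called up (0.29, adjusted p = 0.0093). With both agents it read 102, 125 and 88.4, overlapping ATRA alone. At 72 h the combination's arrays, 87.4, 104 and 87.7, all lay above those of ATRA, by 0.36 ± 0.16, which did not pass (adjusted p = 0.103). The other 3 TGM2 probe sets went the other way there, with mean intensities of 30.8 against 36.8, 30.5 against 38.5 and 23.2 against 30.7 with ATRA.

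For 3 genes more than 1 probe set was on the array, and the further ones showed smaller differences. AQP3 had 3, of which 39248_at was the brightest, with 203747_at and 39249_at beside it. At 24 h of ATRA the brightest differed from DMSO by 3.62 and the others by 0.59 (adjusted p = 0.00318) and 0.99 (adjusted p = 1.7e-05), all called up when every probe set was tested on its own, beside 14.9% of 19359 probe sets called in either direction. Of the AQP3 interaction at 24 h the brightest gave -2.20, while the others gave 0.10 (adjusted p = 0.937) and -0.47 (adjusted p = 0.523), so it was called in 1 of the 3. The fall of the combination below ATRA at 24 h was -0.95 in the brightest, beside 0.09 (adjusted p = 0.836) and -0.34 (adjusted p = 0.202) in the others. The VPA difference at 24 h was 1.25 in the brightest and -0.01 and 0.12 in the others. CLMN had 2 probe sets (213839_at and the dimmer 221042_s_at), which both rose with ATRA, by 1.06 and 0.77 at 24 h and 1.75 and 0.68 at 72 h. TGM2 had 4 (201042_at, 211003_x_at, 211573_x_at and 216183_at), which differed, in that order, by 1.25, 0.50, 0.46 and 0.21 at 24 h, the last without passing (adjusted p = 0.255). At 72 h they differed by 1.08, 0.36, 0.40 and 0.27, and the second and the last did not pass (adjusted p = 0.067 and 0.143). With VPA alone at 24 h they differed from DMSO by 0.04, 0.27, 0.50 and 0.34, and the third was called up (adjusted p = 0.00402). With both agents against ATRA at 72 h they differed by 0.36, -0.25, -0.31 and -0.40, and the last was called down (adjusted p = 0.0194). The further probe sets of these genes lay between 21.4 and 49.4 in DMSO at 24 and 72 h, beside array medians of 43.6 to 54.7 in those groups.

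**Figure D3:**
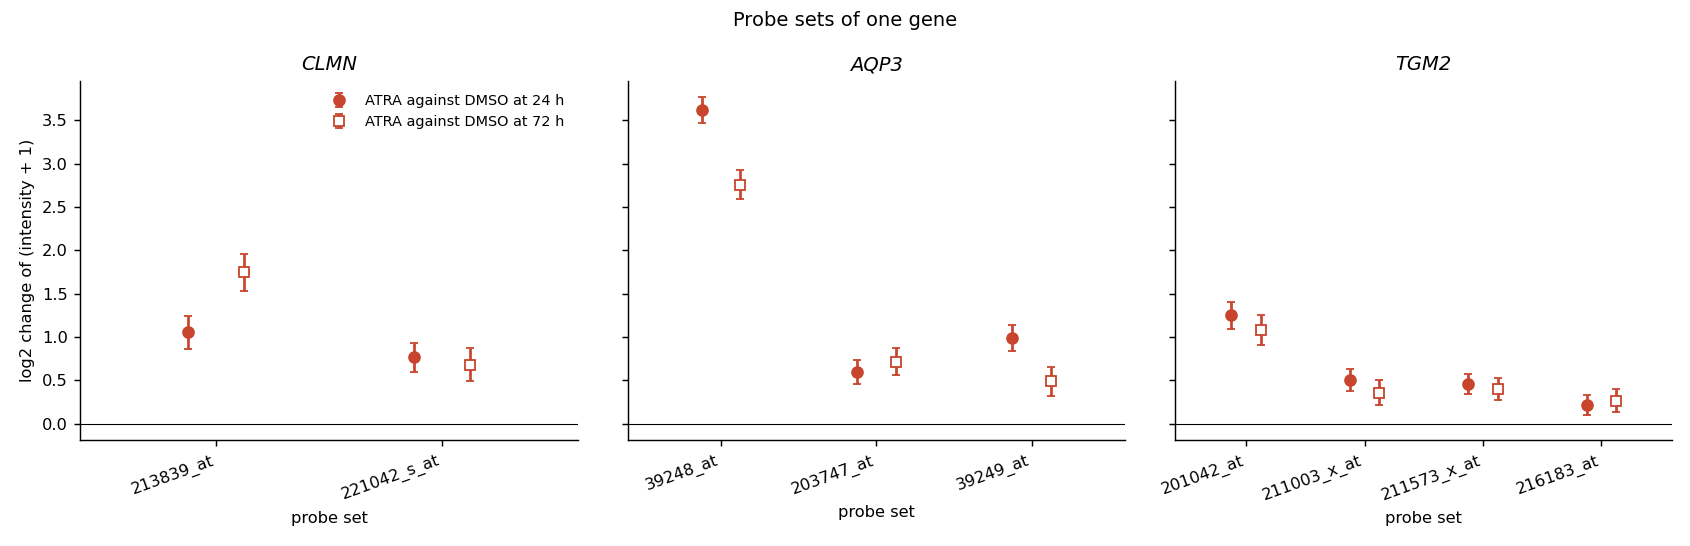
Difference of log2(intensity + 1) between ATRA and DMSO at 24 h (circles) and 72 h (open squares), with SE bars from limma, for each probe set of CLMN, AQP3 and TGM2, the 3 genes with more than 1. The brightest probe set of AQP3 reaches 3.62 at 24 h and its others 0.59 and 0.99.

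Combining the agents moved the members in both directions against ATRA alone. At 24 h 4 of the 8 were lower with both (PTPRH, PTPRK, AQP3 and PLEKHA6) and 2 were higher (LRRC32 and RAB20), beside 4.62% and 4.86% of all genes. CLMN and TGM2 did not pass, with intervals of -0.46 to 0.31 and -0.17 to 0.46. At 72 h 2 were lower (CLMN and PTPRK) and 1 higher (LRRC32), beside 6.22% and 14.6% of all genes. The test for departure from the sum called PTPRK and AQP3 at 24 h, both negative, beside 0.67% of all genes negative and 0.0754% positive. At 72 h it called PTPRK, beside 0.62% of all genes negative and 1.34% positive. Against DMSO the combination raised 7 of 8 at 24 h (13.5% of all genes, with 7.76% lowered) and 8 of 8 at 72 h (14.9%, with 16.6% lowered). VPA alone raised 4 of 8 at 24 h, LRRC32, AQP3, PTPRK and RAB20, beside 9.69% of all genes, and 1 of 8 at 72 h, PTPRK, beside 4.51%. It lowered none of the 8, beside 2.5% and 2.15% of all genes. These comparisons share their DMSO, VPA or ATRA arrays, so their counts are not independent of each other. As a description at 6 h, VPA alone put 6 of the 8 brightest probe sets above every DMSO array, beside 15.8% of all genes. RAB20 led at 1.25, then LRRC32 at 0.81 and CLMN at 0.79. In every further probe set of CLMN, AQP3 and TGM2 the VPA and DMSO arrays overlapped at 6 h.

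**Figure D4:**
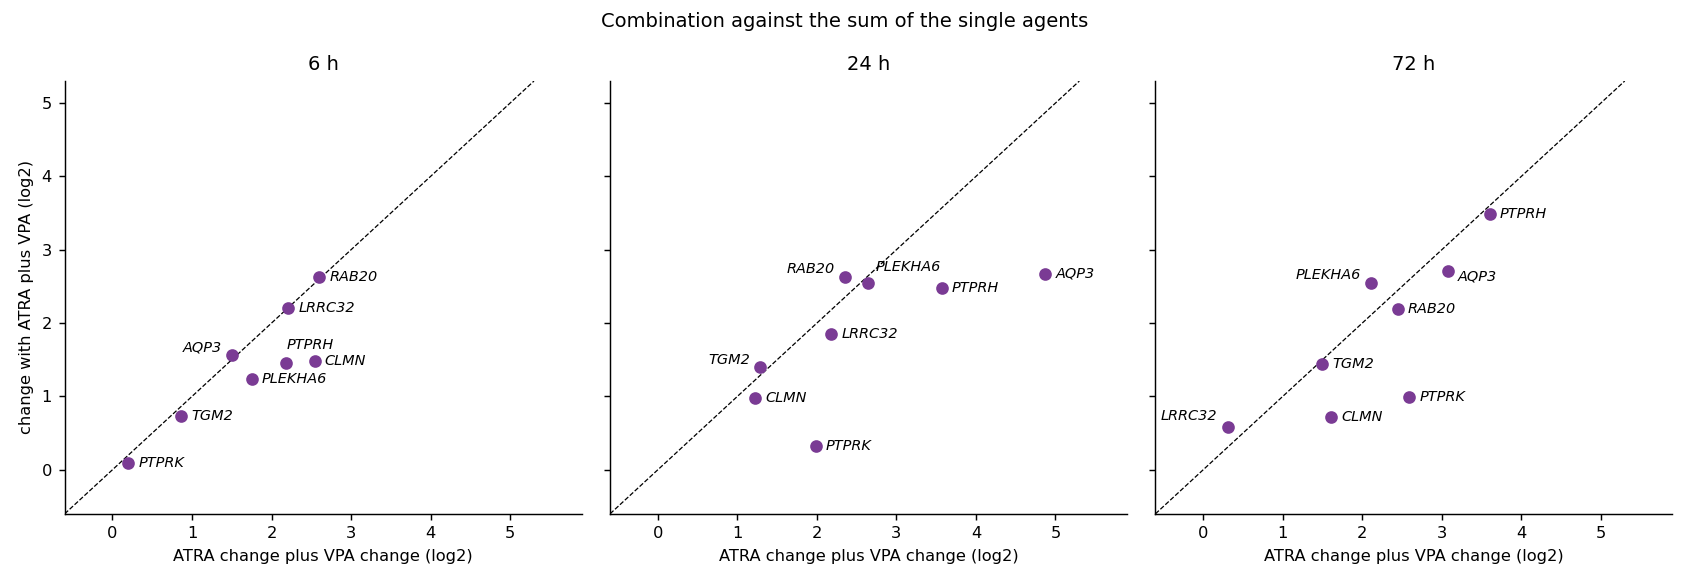
Difference from DMSO with both agents against the sum of the differences with each alone, on the log2(intensity + 1) scale, at 6, 24 and 72 h; the dashed line marks equality and each point is 1 gene. AQP3 at 24 h (sum 4.87, combination 2.67) and PTPRK at 24 and 72 h lie furthest under the line, and RAB20 lies near it at all times.

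The ATRA effect on top of VPA, that is both agents against VPA alone, also changed over time. From 6 to 24 h it grew in 3 of the 8, beside 1.54% of all genes: PLEKHA6 by 1.68 ± 0.21 (adjusted p = 3.6e-06), PTPRH by 1.16 ± 0.27 (adjusted p = 0.014) and TGM2 by 0.79 ± 0.22 (adjusted p = 0.0472). It shrank in 1, LRRC32, by -1.14 ± 0.28 (adjusted p = 0.0186), beside 1.21% of all genes. PLEKHA6 kept its call when any 1 array was left out. PTPRH lost its call without replicate 3 of VPA at 6 h (0.98, adjusted p = 0.054). LRRC32 lost its call without replicate 2 of VPA at 6 h, replicate 2 of both agents at 6 h, replicate 1 of VPA at 24 h or replicate 1 of both at 24 h (adjusted p between 0.052 and 0.058), and TGM2 without 9 of the 12 arrays in turn (0.053 to 0.17). With the mean of all its probe sets the TGM2 growth was 0.05 (adjusted p = 0.95). From 24 to 72 h it grew in 1 of the 8, AQP3, by 0.98 ± 0.21 (adjusted p = 0.00339), beside 3.57% of all genes, and shrank for none, beside 2.65%. The AQP3 call was lost with the 3′ to 5′ ratio as a covariate (0.64, adjusted p = 0.087) and when its 3 probe sets were averaged (0.26, adjusted p = 0.28). PTPRH grew by 0.74 (adjusted p = 0.122), and was called when only the arrays compared were fitted (adjusted p = 0.0028), with array weights (0.025) and with a pseudocount of 32 (0.013). At 24 h the ATRA effect on top of VPA was called up in 6 of 8, all but PTPRK and LRRC32, beside 5.13% of all genes up and 6.73% down, and at 72 h in the same 6, beside 12.3% up and 13.4% down. CLMN at 24 h lost this call when only the arrays compared were fitted (adjusted p = 0.066). For TGM2 the calls are those of its brightest probe set, at 1.36 at 24 h and 1.02 at 72 h. With all its probe sets averaged they were 0.33 (adjusted p = 0.0024) and 0.21 (adjusted p = 0.034). Its further probe sets were not called on their own. In 211003_x_at, 211573_x_at and 216183_at the values were 0.215, 0.10 and -0.35 at 24 h, and 0.05, -0.07 and -0.15 at 72 h. The effect of ATRA alone was smaller at 72 h than at 24 h for LRRC32 (-0.93 ± 0.30, adjusted p = 0.0281) and for AQP3 in its brightest probe set. These were 2 of the 8 beside 15.2% of all genes, and the effect was larger for none, beside 3.9%. For LRRC32 that call was lost without replicate 1 of DMSO at 24 h (-0.56, adjusted p = 0.11), either DMSO array at 72 h (adjusted p = 0.09 and 0.08), replicate 3 of ATRA at 24 h (adjusted p = 0.066) or replicate 3 of ATRA at 72 h (adjusted p = 0.053). It was also lost with the 3′ to 5′ ratio as a covariate (-0.55, adjusted p = 0.27), with array weights (-0.43, adjusted p = 0.17), after a second quantile normalization (-0.62, adjusted p = 0.085) and when only the arrays compared were fitted (adjusted p = 0.16). In DMSO alone none of the 8 was called between 24 and 72 h by limma, where 1.16% of all genes were called up and 0.469% down, nor did any of the 8 reach an unadjusted p under 0.05. PLEKHA6 was called there without replicate 2 of DMSO at 72 h (-0.75, adjusted p = 0.015).

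Ordered by group mean, 6 of the 8 genes had their highest mean in a group with ATRA alone or both agents at 24 h, and PTPRK and CLMN had theirs with ATRA at 72 h. PTPRH was highest with ATRA at 24 h (542), whose arrays overlapped those of both agents at 72 h (447) and these those of ATRA at 72 h (421). Both agents at 24 h (241), ATRA at 6 h (181) and both at 6 h (115) followed, each clear of the next, and the 6 groups without ATRA lay between 39.7 and 45.5 and overlapped. PLEKHA6 had the same division, with the 6 groups holding ATRA from 565 down to 124 and the 6 without it between 43.4 and 69.3. AQP3 fell from 407 with ATRA at 24 h through 232, 224 and 214, which overlapped in order, to 32.4 with DMSO at 24 h, with VPA at 24 h (79.4) overlapping ATRA at 6 h (82.8). LRRC32 ran from 469 and 449 with both agents at 24 and 6 h, and 390 with VPA at 24 h, down to 108 with ATRA at 72 h and 96.9 with DMSO at 6 h. RAB20 held its 3 highest means with both agents (214, 198 and 148) and its 3 lowest with DMSO (34.2, 31.8 and 31.0). PTPRK ran from 125 with ATRA at 72 h to 39.4 with DMSO at 24 h, and ATRA at 6 h (55.4) lay below DMSO at 6 h (64.0).

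Over the 12 group means, PTPRH and PLEKHA6 were the most alike of the 28 pairs of members (Pearson r = 0.97). PTPRH, PLEKHA6, AQP3 and TGM2 had r between 0.93 and 0.97 with one another. PTPRK had r between -0.15 and 0.54 with the other members and LRRC32 between -0.15 and 0.57. These are descriptions over 12 points that share the arrays and the treatments. Among 2570 other genes whose group means varied, the one most like PTPRH was LTBP3, a latent TGF-beta binding protein (r = 0.99), followed by ADD3 and PRKCH (both 0.97). PLEKHA6 was most like PRKCH (0.97), AQP3 like SUOX (0.97), and TGM2 like TMC6 (0.98), which was the second for AQP3 as well. CRABP2, the retinoic acid binding protein, was the third for AQP3 (0.96). RAB20 was most like SNAPC1 (0.95) and IER3 (0.92), CLMN like S1PR1 (0.91), LRRC32 like HES1 (0.84), and PTPRK like AGTPBP1 (0.82).

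Relatives of each member were counted with ATRA against DMSO, beside 12.5% of all genes called up and 6.01% down at 24 h, and 10.7% up and 20.2% down at 72 h. Of 15 other receptor tyrosine phosphatases measured, 2 rose and 1 fell with ATRA at 24 h, and 4 rose and 1 fell at 72 h. The counts at 24 h are near the share over all genes, and the median difference at 24 h was 0.08 beside 0.04 over all genes. At 72 h the median difference was 0.225 beside 0.002 over all genes. PTPRR rose by 1.68-fold at 24 h (adjusted p = 1.6e-05), and PTPRU fell by 3.26-fold at 72 h (adjusted p = 5.1e-08). Of 4 other PLEKHA genes 2 rose at each time, PLEKHA4 and PLEKHA5, the latter by 3.29-fold at 72 h (adjusted p = 1.5e-11). Of 10 other calponin-homology proteins 3 rose and 1 fell at 24 h, among the risers SPTBN1 by 1.40-fold, and 2 rose and 1 fell at 72 h, with DST up by 1.48-fold.

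Of 15 other genes of latent TGF-beta handling, the pathway LRRC32 belongs to, 3 rose and 0 fell at 24 h, and 3 rose and 2 fell at 72 h, beside 12.5% of all genes up and 6.01% down at 24 h and 10.7% up and 20.2% down at 72 h. LTBP3, which binds latent TGF-beta in the matrix, rose by 4.75-fold at 24 h (adjusted p = 2.3e-14) and TGFB1, the ligand, by 3.36-fold (adjusted p = 1.3e-05). TGFBR3, a co-receptor, fell by 2.07-fold at 72 h (adjusted p = 7.1e-05). Of 19 other RAB GTPases 3 rose and 2 fell at 24 h and 4 rose and 5 fell at 72 h, with RAB38 up by 4.26-fold at 72 h (adjusted p = 7.4e-09). Of 8 other aquaporins AQP1 rose, by 1.64-fold at 24 h (adjusted p = 0.0012) and 2.25-fold at 72 h (adjusted p = 5e-06), and 3 in all rose at 72 h. Of 7 other transglutaminases TGM5 was called, lower at 24 h and higher at 72 h.

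Of 18 other retinoid response genes 11 rose and 1 fell with ATRA at 24 h, and 12 rose and 1 fell at 72 h, beside 12.5% and 10.7% of all genes up and 6.01% and 20.2% down. The median difference was 0.72 at 24 h and 0.78 at 72 h. CRABP2 rose by 16.9-fold at 24 h (adjusted p = 2.4e-17). CYP26B1 and CYP26A1, which break retinoic acid down, rose by 31.2-fold (adjusted p = 2.2e-20) and 26.6-fold (adjusted p = 1e-17) at 72 h. At 6 h, with both agents against VPA alone, 5 of these 18 were called up and 0 down, beside 0.452% and 0.117% of all genes. In the same comparison 1 of the latent TGF-beta genes and 1 of the aquaporins were called up, and 0 of the other 5 lists.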

How the data were processed

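Total RNA of BE(2)-C cells was hybridised to 35 arrays in 12 groups. The authors deposited one table of intensity values on a linear scale, made by RMA per the submitters' processing notes, whose version is not given in the sources used here. Probe sets were named through the platform annotation: 19359 of 22930 had exactly 1 symbol, 125 had several, 3292 none, and 154 control probe sets were left out. Of the genes, 11874 matched by gene ID and 0 symbols changed. The brightest probe set by mean intensity stood for each of 11940 genes. Values were taken as log2(intensity + 1), and 12 group means were fitted together in limma 3.58.1 (R 4.3.3; lmFit, contrasts.fit, eBayes; 23 residual degrees of freedom), with Benjamini-Hochberg adjustment over all genes within each of 17 contrasts and a threshold of 0.05. These contrasts use no array of ATRA or DMSO at 6 h; 6 others do and were described without a test. The fit was tested on simulated data. Folds are on the log2(intensity + 1) scale, which understates changes of dim genes.

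The members and the gene lists were chosen with earlier results of these data known. From each list the text names up to 2 non-members with the largest called change at 24 and at 72 h of ATRA, and for each member up to 3 genes with the highest correlation of group means, among genes whose group means had an SD of at least 0.3. Alternatives changed the pseudocount, filter, probe set choice, normalization, variance model, array weights, the arrays in the fit, the replicate block and each array in turn, and added the 3′ to 5′ ratio as a covariate. Same-numbered arrays did not deviate together, so the numbers were not used as a block. Promoter letters came from RefSeq, GRCh38.p14.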

Additional observations from a re-analysis of the deposited data

Results flagged for a closer look

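10 results stood out because an effect of ATRA differed, by the limma test of the difference itself, between cells with and without VPA or between times. With VPA present the ATRA effect was smaller for PTPRK, by -1.66 at 24 h and -1.59 at 72 h, and for AQP3, by -2.20 at 24 h. The effect of ATRA alone was smaller at 72 h than at 24 h for LRRC32 (-0.93) and AQP3 (-0.86). On top of VPA, the ATRA effect was larger at 24 h than at 6 h for PTPRH (1.16), PLEKHA6 (1.68) and TGM2 (0.79), and smaller for LRRC32 (-1.14). For AQP3 it was larger at 72 h than at 24 h (0.98). The AQP3 and TGM2 values are those of the brightest probe set. With all 3 AQP3 probe sets averaged, the interaction at 24 h was -0.85 (adjusted p = 2e-04) and the growth from 24 to 72 h on top of VPA was 0.26 (adjusted p = 0.28). Tested on their own, the further AQP3 probe sets were not called for the interaction at 24 h. In 203747_at the difference between ATRA and DMSO did not narrow from 24 to 72 h. With all 4 TGM2 probe sets averaged, its growth from 6 to 24 h was 0.05 (adjusted p = 0.95). The LRRC32 difference between 72 and 24 h was -0.55 (adjusted p = 0.27) with the 3′ to 5′ ratio as a covariate.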

How the results depend on the processing

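Of 136 differences tested for single members, 71 were called. Over all alternatives these gave 2504 values. Of these, 2402 kept their side of the threshold, 63 lost a call and 39 gained one. Called values changed sign in 0 cases, while 76 of the 2402 were uncalled and changed sign. The number of members called moved by over 1.5 times as follows, and the cause was not tested. For VPA against DMSO at 24 h it went from 4 to 2 when only the arrays compared were fitted. For VPA at 72 h it went from 1 to 2 with only those arrays, 3 with array weights, 2 after a second quantile normalization and 2 with the 3′ to 5′ ratio as a covariate. For the interaction at 72 h it went from 1 to 2 with a pseudocount of 32. For the ATRA effect at 72 h against 24 h it went from 2 to 1 with only the arrays compared, 1 with array weights and 1 with the 3′ to 5′ ratio. For the effect on top of VPA at 72 h against 24 h it went from 1 to 2 with only the arrays compared, 0 with the mean of all probe sets, 2 with array weights, 2 with a pseudocount of 32 and 0 with the 3′ to 5′ ratio.

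Leaving out each array in turn, the members called numbered 5 to 6 for both agents against VPA at 6 h, 7 to 8 for ATRA at 24 h, 3 to 4 for VPA at 24 h, 7 to 8 for both at 24 h, 6 to 7 for both against VPA at 24 h, and 5 each time for both against ATRA at 24 h, where all arrays gave 6. They numbered 2 to 3 for the interaction at 24 h, 7 for ATRA at 72 h, 1 to 2 for VPA at 72 h, 6 to 8 for both at 72 h, 6 for both against VPA at 72 h, 3 for both against ATRA at 72 h, and 1 to 2 for the interaction at 72 h. They numbered 0 to 2 for the ATRA effect at 72 h against 24 h, 2 to 4 for the effect on top of VPA at 24 h against 6 h, 1 at 72 h against 24 h, and 0 to 1 for DMSO over time. Without 1 DMSO array at 72 h the other is assumed to vary like the other groups.

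Same-time arrays with the same replicate number deviated together no more than others (median r -0.01 over 51 pairs, against 0.01 over 102 pairs). With the replicate block 1 call changed, TGM2 on top of VPA at 24 h against 6 h, whose adjusted p went from 0.047 to 0.059. A pseudocount of 32 lowered the ATRA difference at 24 h to 2.92 for PTPRH and 2.77 for AQP3, and the mean of all probe sets lowered it to 1.73 for AQP3 and 0.61 for TGM2. Intensities near the array median limit the smallest differences that can be read.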
